A study of Mus musculus with 2 samples.

Results

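The Iroquois homeobox genes Irx1 to Irx6 were examined through the open chromatin intervals around them. An interval was counted as a member when its nearest protein-coding start site in the mm10 annotation was that of Irx1, Irx2, Irx3, Irx4, Irx5 or Irx6. This rule used position alone. The intervals themselves were called peaks, and the genes were chosen with earlier results of these data known. There were 164 member intervals among 119502 in all. Irx1, Irx2 and Irx4 form the IrxA cluster on chromosome 13 and held 71 of them, and Irx3, Irx5 and Irx6 form the IrxB cluster on chromosome 8 and held 93. By gene, there were 30 intervals for Irx1, 22 for Irx2, 51 for Irx3, 19 for Irx4, 26 for Irx5 and 16 for Irx6.

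The assay was ATAC-seq, where Tn5 transposase cuts exposed DNA and leaves sequencing adapters behind. The cells were mouse neural progenitors of the Olig2-mKate2 embryonic stem cell line, an Olig2-2A-mKate2 reporter in which red fluorescence follows the motor neuron progenitor gene Olig2. They were differentiated to day 5, treated with 100 nM retinoic acid and 100 nM SAG (a Sonic hedgehog pathway agonist), sorted live for mKate2, and transposed in portions of 50000 cells. The labels gave 1 group with 2 replicates of a single line, so no conditions could be compared, and nothing in the labels said whether the replicates were separate cultures. The spread between them may therefore be technical. By the study's account, cells sorted with this reporter also hold new motor neurons and some cells positive for both OLIG2 and NKX2.2.

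Iroquois proteins are homeodomain transcription factors of the TALE class, which carry an extended loop in the homeodomain. Vertebrates hold them in paired clusters that arose by duplication of an ancestral cluster, so that Irx1 corresponds to Irx3, Irx2 to Irx5 and Irx4 to Irx6. In the ventral neural tube, Irx3 marks progenitors dorsal to the motor neuron domain (pMN), and Irx3 and Olig2 repress each other. Irx5 is expressed with Irx3 in several tissues, while Irx4 is best known from the ventricles of the heart. Open chromatin at a gene is not its transcription, which was not measured here.

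Of the alignments between intervals of IrxA and IrxB, 1 joined a pair of stretches outside exons, and it is shown because the longer alignments lay over coding sequence. The first lay 98.0 kb downstream of the Irx2 start, at chr13:72727260-72727391, and was intergenic. The second lay 9.004 kb downstream of the Irx5 start, at chr8:92366784-92366914, in an annotated intron of Irx5. Both are printed from the mm10 genome on the plus strand with 40 bases of context on each side, and capitals mark the bases that were identical in the alignment.
Irx2 element: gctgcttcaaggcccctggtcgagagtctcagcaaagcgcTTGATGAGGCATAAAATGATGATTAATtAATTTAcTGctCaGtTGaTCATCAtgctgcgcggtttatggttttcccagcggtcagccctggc
Irx5 element: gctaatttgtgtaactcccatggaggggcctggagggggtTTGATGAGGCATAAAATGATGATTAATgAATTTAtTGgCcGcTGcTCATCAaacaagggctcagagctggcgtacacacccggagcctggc

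The alignment spanned 52 columns with 45 identical bases (86.5%, BLAST E-value 1.31e-10), of which 27 followed each other without a mismatch. That run held TGATTAAT, a match to TGATTNAT, the letters searched for HOX proteins with a TALE cofactor. Counts were deposited for whole intervals, so openness of the aligned stretch by itself was not measured. The interval of 1075 bp around the Irx2 element had 246 counts in replicate 1 and 260 in replicate 2, which gave 235 ± 9.07 normalised counts per kb (SD, n = 2). The interval of 754 bp around the Irx5 element had 265 and 307 counts, or 379 ± 39.2 normalised counts per kb (SD, n = 2). The Irx5 interval was the denser in each library. A match of letters describes the sequence and does not show that a protein binds there.

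Of the 4 paralogous pairs found between the clusters, the other 3 lay over coding sequence and joined corresponding genes. The interval 3.62 kb downstream of the Irx1 start aligned with the interval over the Irx3 start along 125 bases at 92.0% identity and along a further 44 bases at 88.6%. The intervals over the Irx2 and Irx5 starts aligned along 169 bases at 77.5%. An exon interval 2.67 kb into Irx2 aligned with one 2.41 kb into Irx5 along 58 bases at 81.0%. No interval of Irx4 or Irx6 took part in a pair. When every member was matched against all intervals, 12 of 164 had a match, and the best match lay in the other Irx cluster for 6 and at an interval of another gene for the remaining 6. With a shorter seed of 7 bases in place of 11 the number of pairs was 7, and with a limit of 1e-10 in place of 1e-05 it was 2, both over coding sequence, so the pair outside exons, at 1.31e-10, was lost there.

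Each of the 6 genes had an interval over its annotated start. Density is given as counts divided by the library's size factor and by interval length in kb. Irx5 had the densest start, with 2139 normalised counts per kb in replicate 1 and 2132 in replicate 2 (2135 ± 5.07, SD, n = 2). The interval at chr8:92355634-92358401 held 5918 and 5903 counts over 2768 bp, and also overlapped an exon of the noncoding gene Crnde. Among all 21911 protein-coding genes, this density stood at the 97.0th percentile. Of those genes 13483 had an interval over the start, and the rest entered as 0. Irx3 followed with 1416 and 1405 normalised counts per kb (1411 ± 7.82, SD, n = 2), from 3570 and 3545 counts at chr8:91799776-91802297, an interval that also covered an exon of the antisense gene Irx3os.

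Irx2 and Irx6 formed the middle of the order. The Irx2 start interval, at chr13:72628093-72629562 and shared with an exon of the lincRNA Gm20554, had 970 and 930 normalised counts per kb (949.7 ± 28.4, SD, n = 2). At the Irx6 start, chr8:92673377-92674893, the values were 847 and 786 (817 ± 43.4, SD, n = 2). Irx2 was higher than Irx6 in both libraries, by 1.16 ± 0.0269 times, the smallest step in the order. These starts lay near the median of 883 for genes with an interval over the start.

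Irx1 and Irx4 had the least open starts. The Irx1 interval at chr13:71962213-71964590 held 720 and 748 counts, or 303 and 314 normalised counts per kb (309 ± 8.15, SD, n = 2). The Irx4 interval at chr13:73260203-73261108 held 129 and 110 counts, or 142 and 121 normalised counts per kb (132 ± 14.9, SD, n = 2). Both fell below the median of all protein-coding genes, 402 normalised counts per kb, which includes genes without an interval over the start. From Irx5 down to Irx4 the steps were 1.51 ± 0.00481, 1.49 ± 0.0363, 1.16 ± 0.0269, 2.65 ± 0.210 and 2.36 ± 0.328 times (ratio ± SD, n = 2), and no neighbours overlapped between libraries. With 2 samples of 1 group this order is a description and carries no test.

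**Figure D1:**
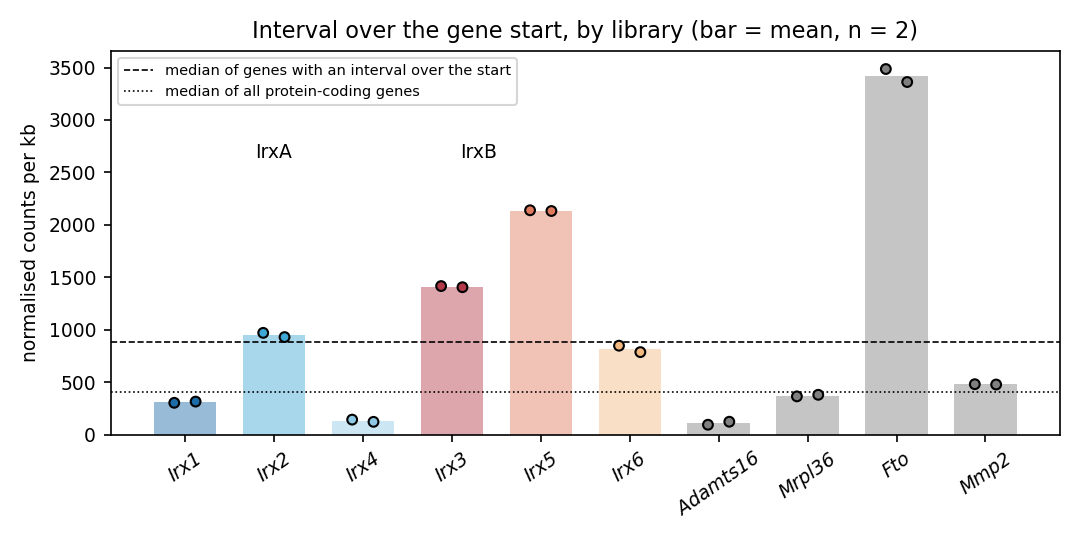
Density of the interval over each gene start, in normalised counts per kb, for the Irx genes and the nearest protein-coding gene on each side of the clusters. Bars are means and points the 2 libraries; Irx5 reached 2135 and Irx4 132, with the Irx2 and Irx6 bars either side of the dashed line at 883.

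Genes flanking the clusters did not share the level of their Irx neighbours. Fto, a demethylase gene beside Irx3, had 3424 ± 87.6 normalised counts per kb over its start (SD, n = 2). Mmp2, a matrix protease gene beside Irx6, had 479 ± 2.22. Around IrxA, Adamts16 had 108 ± 20.3 and Mrpl36 had 372 ± 10.6 (SD, n = 2 each). The median of the 6 Irx starts was 883 normalised counts per kb, against 888 for a list of 12 other TALE genes, of which 11 had an interval over the start, and 484 for a list of 9 genes that mark neural tube domains, of which 8 had one. For the labelled cell type, the pMN and shared progenitor list had 946 for Olig2, 1452 for Nkx6-1, 862 for Sox2 and 187 for Pax6. Fibroblast genes, which would mark feeder cells, had a list median of 185 with an interval over 3 of 4 starts, and pluripotency genes 69.3 with 2 of 4. Among neighbouring identities, the list of p0 to p2 and interneuron genes had a median of 387 with 4 of 4 starts, motor neuron genes 478 with 3 of 4 and Isl1 the highest at 1087, and p3 and floor plate genes 0 with 1 of 3, against 904 with 4 of 4 for pMN and shared progenitor genes. The part of such cells in the Irx values was not tested.

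Starts on chromosome 8 stood apart, which bears on every IrxB promoter. Without the Irx intervals, starts on chromosome 8 had 1.40 ± 0.00990 times the median density of the other autosomes (SD, n = 2), and each remaining autosome had between 0.913 and 1.13 times. Chromosome 13, which carries IrxA, had 0.916 ± 0.00353. Each Irx start was therefore also set against the median start of its own chromosome. Irx5 had 1.74 times that median in replicate 1 and 1.82 in replicate 2 (1.78 ± 0.0511, SD, n = 2), and stayed the highest. Its density was above that of 84.9% of the 648 other start intervals on chromosome 8.

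On that scale Irx2 and Irx3 could no longer be ordered. The Irx2 start had 1.19 and 1.18 times the median of chromosome 13 (1.19 ± 0.00571, SD, n = 2), and Irx3 had 1.155 and 1.197 times that of chromosome 8 (1.18 ± 0.0300, SD, n = 2), so the libraries of one gene enclosed those of the other. Irx6 had 0.680 ± 0.0150, Irx1 0.387 ± 0.0199 and Irx4 0.165 ± 0.0145 (SD, n = 2 each). Irx4 was the least open by either scale. What sets chromosome 8 apart was not tested here.

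**Figure D2:**
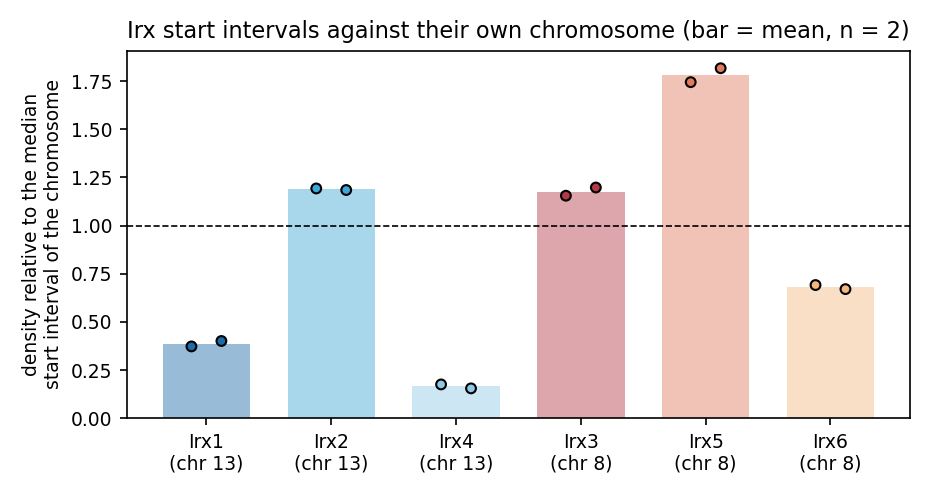
Density of each Irx start interval divided by the median start interval of the same chromosome (dashed line, 1), with bars for means and points for the 2 libraries. Irx5 stood at 1.78, Irx2 and Irx3 overlapped at 1.19 and 1.18, and Irx4 stood at 0.165.

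The DNA before the starts had a GC content above the median in all members. In the 300 bases upstream, GC content was 71.0% for Irx1, 69.7% for Irx2, 69.3% for Irx3, 65.3% for Irx4, 64.7% for Irx6 and 59.7% for Irx5, against a median of 53.0% for protein-coding genes and 58.3% for those with an interval over the start. The order by GC content therefore did not follow the order by openness, since the densest start, that of Irx5, had the lowest value. Irx5 had 26 CG dinucleotides in this window, Irx4 had 19 and Irx6 had 8, against a median of 9 for all genes and 17 for those with an interval over the start. The 150 bases before the most and the least open start are printed on the plus strand of mm10 with CG in capitals. In these shorter windows the order was the reverse, with 12 CG for Irx5, chr8:92357475-92357624, and 18 for Irx4, chr13:73260329-73260478.
Irx5 promoter: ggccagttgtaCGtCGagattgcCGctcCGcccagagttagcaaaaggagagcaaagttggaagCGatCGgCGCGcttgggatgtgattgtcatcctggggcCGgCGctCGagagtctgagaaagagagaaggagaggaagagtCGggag
Irx4 promoter: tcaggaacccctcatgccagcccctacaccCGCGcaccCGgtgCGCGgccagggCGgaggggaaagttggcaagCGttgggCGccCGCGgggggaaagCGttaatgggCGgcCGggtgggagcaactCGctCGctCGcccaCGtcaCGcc

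Apart from the 6 starts, 158 intervals were distal. Of these, 107 were intergenic, 30 lay in introns and 21 touched exons. The Irx genes had many intervals and long surroundings. The median territory, the stretch closer to a gene's start than to any other protein-coding start, was 479 kb for the Irx genes against 47.6 kb for all genes, and the median number of intervals per Mb of territory was 56.96 against 57.18. The clusters lay on either side of that value. Intervals per Mb were 97.7 for Irx3, 68.1 for Irx6 and 59.6 for Irx5 in IrxB. In IrxA they were 54.3 for Irx4, 33.9 for Irx2 and 33.6 for Irx1. Interval number stood between the 92.2nd percentile for Irx6 and the 99.6th for Irx3. When starts of noncoding genes were admitted as the nearest gene, 29 intervals stayed with the Irx genes.

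An interval was called strong at a mean normalised count over 100. Among the members 71 of 164 were strong, or 43.3% (Wilson 95% interval 35.9 to 50.9, treating intervals as independent), where 38.8% of all intervals were. Among distal intervals alone the share was 65 of 158, or 41.1% (33.8 to 48.9), against 32.4%. It was higher in both comparison lists, at 46.4% for distal intervals of the other TALE genes and 51.3% for those of the neural tube domain genes. The members nearest to the limit had 104 and 99.5 normalised counts. Irx members were longer than other distal intervals, at a median of 597 bp against 472 bp, and a longer interval collects more counts. By gene, strong intervals ran from 7 of 30 for Irx1 to 14 of 26 for Irx5, with 24 of 51 for Irx3.

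Per kb, the distal Irx intervals had a median of 129.7 ± 4.28 normalised counts, against 126 ± 2.05 for other distal intervals (SD, n = 2). The ratio of the medians was 1.02 in replicate 1 and 1.04 in replicate 2 (1.03 ± 0.0172, SD, n = 2). Within each library the Irx median was thus slightly the higher, and with 2 libraries no test was made. At the upper end, 25 of 158 (15.8%) exceeded the density that 10.0% of all distal intervals exceeded. Of those, 18 belonged to the 90 distal intervals of IrxB and 7 to the 68 of IrxA. Both comparison lists stood higher. Distal intervals of the other TALE genes had a median of 144 ± 8.75 (SD, n = 2), with 20.8% above that density. For the neural tube domain genes the values were 173 ± 4.57 (SD, n = 2) and 21.7%.

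By distal median, IrxB was the denser cluster. Its distal median was 146 ± 2.03 normalised counts per kb and that of IrxA 110.3 ± 3.52 (SD, n = 2). The ratio was 1.37 in replicate 1 and 1.28 in replicate 2 (1.33 ± 0.0608, SD, n = 2). Distal intervals elsewhere on chromosomes 8 and 13 differed by less, with a ratio of 1.02 ± 0.00784, and division of each cluster by the distal median of its own chromosome, chosen after the values were seen, left 1.30. Starts, however, had 1.40 times the median of other autosomes on chromosome 8 and 0.916 times on chromosome 13. A weak element enters only where a peak was called, and the effect of this on the distal medians was not tested. The part of the chromosome in the cluster difference was not tested. Restricted to intervals within 100 kb of the start, the ratio was 1.04. The clusters mixed distances unequally there, with 10 IrxB and 9 IrxA intervals within 10 kb, but 32 and 12 between 10 and 100 kb. IrxB had the higher median in each range, at 712 against 257 within 10 kb. Between 10 and 100 kb it was 136 ± 12.7 against 110 ± 27.1 (SD, n = 2). By gene, the medians were 96.9 ± 12.1 for Irx1, 149 ± 7.66 for Irx2, 112 ± 1.78 for Irx4, 139 ± 6.88 for Irx3, 152 ± 3.82 for Irx5 and 124 ± 14.6 for Irx6 (SD, n = 2 each). Of the genes that correspond between the clusters, Irx2 and Irx5 differed by less than the spread of Irx2, and Irx4 and Irx6 by less than that of Irx6. Irx1 and Irx3 differed by more than the spread of either, and Irx1 had the lowest median.

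**Figure D3:**
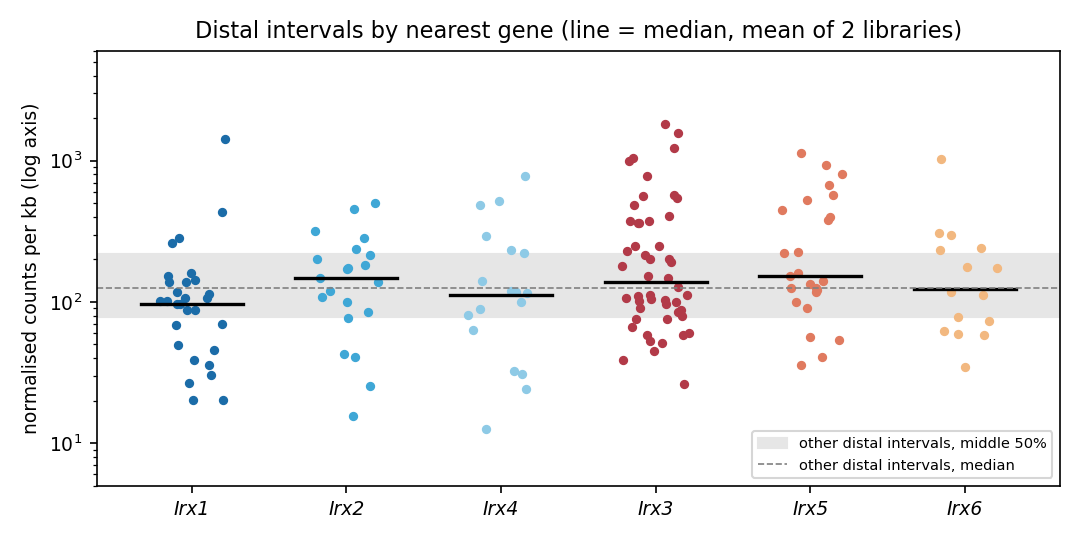
Density of each distal interval (log axis, normalised counts per kb, mean of 2 libraries) by nearest Irx gene, with black lines at the medians and grey shading between the quartiles of other distal intervals. The medians lay between 96.9 for Irx1 and 152 for Irx5, and the points of Irx3 reached highest.

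Distal openness was highest near the starts. The 19 distal Irx intervals within 10 kb of a start had a median of 396 ± 37.2 normalised counts per kb, against 159.8 ± 0.194 for other distal intervals at this distance (SD, n = 2). Within IrxB, 10 intervals had a median of 712 ± 16.2, and within IrxA 9 had 257 ± 1.67. Cluster values by distance were not scaled by chromosome. Between 10 and 100 kb the Irx median was 129 ± 17.1 for 44 intervals, and beyond 100 kb it was 107 ± 1.23 for 95 intervals, against 122 ± 1.68 and 120.3 ± 3.11 elsewhere. The Irx median was thus above that of others near starts. Beyond 100 kb the clusters differed, with 98.7 ± 9.54 for IrxA and 122 ± 6.26 for IrxB (SD, n = 2), and 12.6% of the Irx intervals there exceeded the density of the top 10.0% of distal intervals, against 7.82% of other intervals at that distance.

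**Figure D4:**
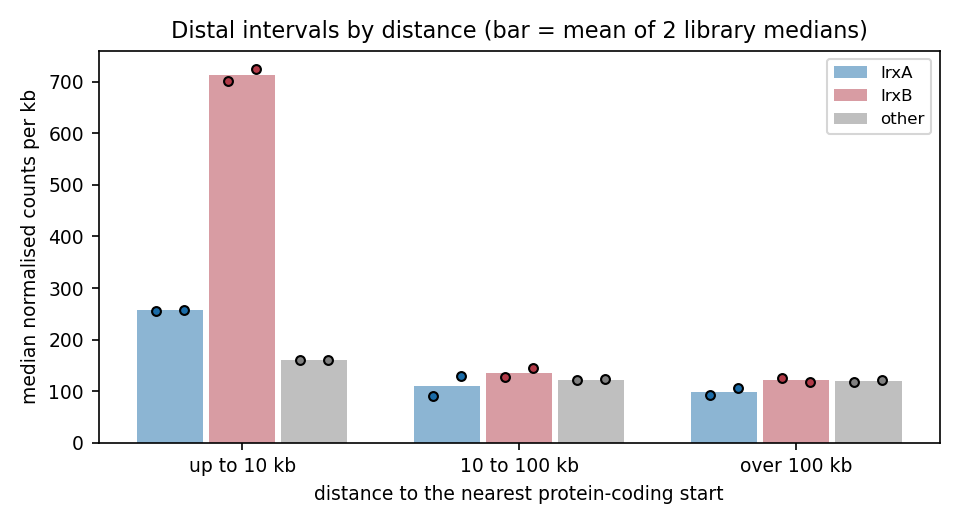
Median density of distal intervals by distance to the nearest protein-coding start, in normalised counts per kb, for IrxA, IrxB and all other genes. Bars are means of the 2 library medians (points); within 10 kb the bars stood at 712 for IrxB, 257 for IrxA and 159.8 for other genes.

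By density, single elements far from a start were as open as promoters. The densest distal member lay 73.6 kb upstream of Irx3, at chr8:91875714-91876893 between genes, and had 2101 and 2198 counts (1822 ± 57.1 normalised counts per kb, SD, n = 2). That density was above that of the Irx3 start itself, although the longer start interval held more counts, 3570 and 3545. In IrxA the densest was 246 kb upstream of Irx1, at chr13:72209818-72210841, with 1405 and 1494 counts (1416 ± 60.6, SD, n = 2), above the start of Irx1. Upstream of Irx5 by 223 kb, the interval at chr8:92132979-92134799 had 2083 and 2057 counts (1137 ± 10.8, SD, n = 2), and a neighbour at 227 kb had 442 and 437 (925 ± 7.98, SD, n = 2). These 3 distal members, 1 each for Irx3, Irx1 and Irx5, had the highest counts of all distal members, although by density 2 other Irx3 intervals exceeded that of Irx5. The central 200 bases of these 3 are printed from mm10, plus strand, since they are the sequences behind the largest distal counts. Capitals mark matches, on either strand, to the letters searched: AGGTCA, a nuclear receptor half-site, in the Irx3 element at chr8:91876203-91876402, TTAATTA, a homeodomain core, in the Irx5 element at chr8:92133789-92133988, and ACAATG, a SOX core, in the Irx1 element at chr13:72210229-72210428.
Irx3 strongest distal element: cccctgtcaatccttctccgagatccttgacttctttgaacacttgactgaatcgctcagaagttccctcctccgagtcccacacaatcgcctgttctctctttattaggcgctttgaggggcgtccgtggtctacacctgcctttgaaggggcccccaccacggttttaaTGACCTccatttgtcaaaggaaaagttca
Irx5 strongest distal element: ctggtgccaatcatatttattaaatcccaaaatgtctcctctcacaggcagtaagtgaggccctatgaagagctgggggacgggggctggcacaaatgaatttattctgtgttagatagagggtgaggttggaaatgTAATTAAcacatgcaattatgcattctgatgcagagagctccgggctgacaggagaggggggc
Irx1 strongest distal element: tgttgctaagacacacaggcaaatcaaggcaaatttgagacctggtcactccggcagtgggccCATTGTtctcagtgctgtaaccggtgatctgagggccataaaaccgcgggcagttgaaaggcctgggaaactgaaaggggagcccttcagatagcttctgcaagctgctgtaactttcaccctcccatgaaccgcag

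The remaining genes differed in where their densest elements lay. For Irx3, an interval 7.84 kb downstream over an exon of the lincRNA Gm36380 had 508 and 557 counts (1580.1 ± 102 normalised counts per kb, SD, n = 2), and one 109 kb downstream had 1183 and 1211 (1220.2 ± 19.5, SD, n = 2). Irx6 had a single dense element, 3.21 kb upstream, with 845 and 826 counts (1028 ± 17.1, SD, n = 2). Its density was above that of the Irx6 start in both libraries, although the longer start interval held more counts, 1285 and 1193. The next densest of Irx6 had 308 ± 59.2 and 298 ± 2.37. The next densest of Irx1 lay 455 and 433 kb downstream in an intron of the lincRNA 1700112M02Rik, with 434 ± 28.2 and 285 ± 5.70 (SD, n = 2 each). For Irx5 the third lay 2.41 kb downstream over coding sequence, with 809.6 ± 68.4 (SD, n = 2). For Irx4, all 3 densest elements were upstream and distant, at 189 kb (779 ± 6.97), 99.8 kb (519 ± 33.6) and 225 kb (484 ± 6.71, SD, n = 2 each), and each was denser than the Irx4 start at 132. Irx2 showed the reverse, with its 3 densest within 10 kb, at 505 ± 3.32, 457 ± 97.3 and 320 ± 12.9 (SD, n = 2 each), all below its start.

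**Figure D5:**
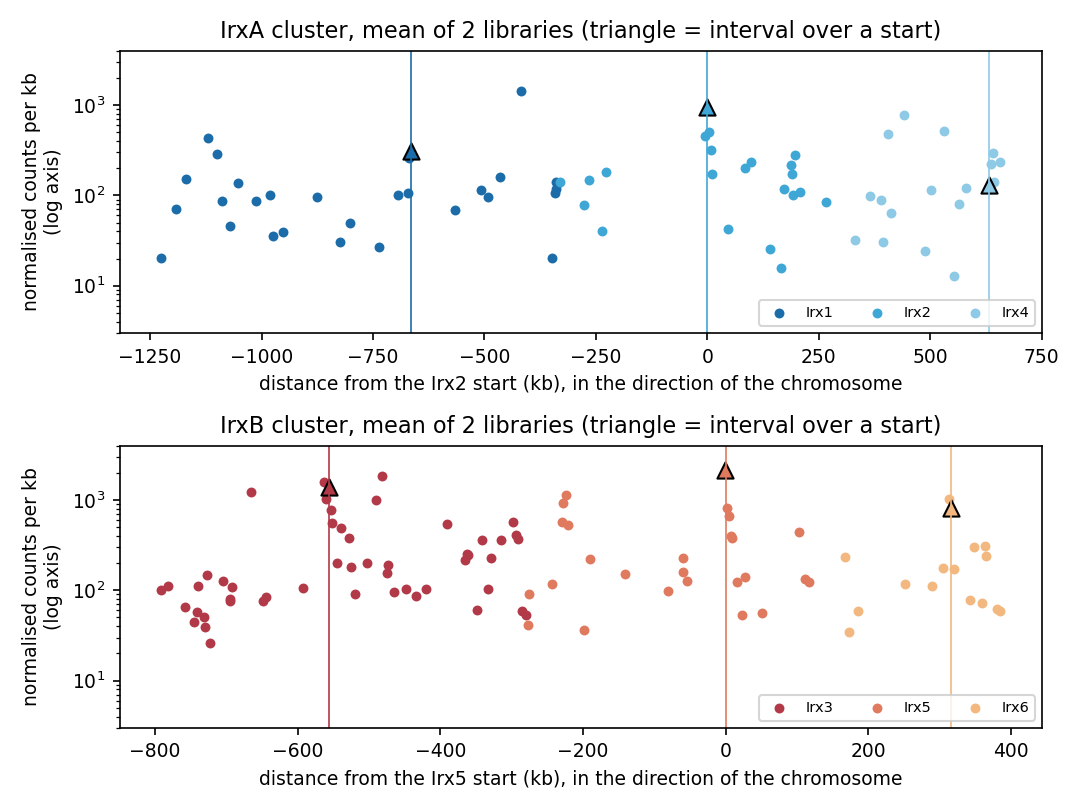
Density of each interval (log axis, normalised counts per kb, mean of 2 libraries) against distance along the chromosome from the Irx2 start (top, IrxA) or the Irx5 start (bottom, IrxB), with vertical lines and triangles at the gene starts. Dense distal points stood apart at 1416 for Irx1 and 1822 for Irx3, while the Irx4 triangle at 132 lay below several of its own distal points.

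Fto introns are known to hold long-range regulatory elements of Irx3. The Fto body, chr8:91313525-91668439, held 39 intervals, of which 15 were strong. Of these 39, 14 had the Irx3 start as their nearest and so counted as members. Only 1 of the 14 was strong, and their highest density was 146 normalised counts per kb. The stretch of Fto nearest to Irx3 was therefore weakly open in these cells. All other strong intervals of the Fto body lay closer to another start and were not members. The 14 members thus do not describe the Fto introns as a whole. The dense interval 109 kb downstream of Irx3 lay between the end of Fto and Irx3, outside the Fto body.

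Motif letters were searched on both strands in the central 300 bases of each distal interval. TTAATTA is the core bound by paired-type and many other homeodomain proteins. It occurred in 17 of 158 Irx windows, or 10.8% (Wilson 95% interval 6.83 to 16.6, treating windows as independent), against 4.49% of all distal windows. TGATTNAT, for HOX with a TALE cofactor, also occurred in 17 (10.8%), against 7.02%, and its interval included that share. In the 65 strong Irx windows, TGATTNAT occurred in 12 (18.5%, 10.9 to 29.6) against 6.55% of other strong distal windows. Within 200 bases it occurred in 6 (9.23%, 4.30 to 18.7) against 4.59%, which that interval included. Within 500 bases it occurred in 15 (23.1%, 14.5 to 34.6) against 10.1%, which lay below that interval. The strong windows were not a class set beforehand. TTAATTA occurred in 6 strong windows of 300 bases (9.23%, 4.30 to 18.7) against 4.26%. TGTTTAC, the forkhead core, was rarer in Irx windows, in 2 of them (1.27%, 0.348 to 4.50) against 4.68%. ACANNTGT, a site of Iroquois proteins themselves that can overlap an E-box, occurred in 7.59% against 11.5%. Of the remaining letters, ACAATG occurred in 27.8% against 23.2%, CAGATG in 29.7% against 28.8%, CAGCTG in 21.5% against 22.8%, and AGGTCA in 22.8% against 22.1%. CATATG occurred in 3.80% against 5.56% and the GLI letters GACCACCCA in 0.633% against 0.494%. Base composition was alike, at a median GC content of 48.5% in Irx windows and 48.3% elsewhere. Windows within a cluster are not independent, so whether an interval includes a share is not a test, and no test was made.

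The libraries differed little over the members. Totals were 31876165 counts in replicate 1 and 31672240 in replicate 2, and the members took 43696 (0.137%, Wilson 95% interval 0.136 to 0.138) and 44237 (0.140%, 0.138 to 0.141), while they make up 0.155% of the interval length. The squared correlation of log2 normalised counts over the 164 intervals, which share library and depth, was 0.969. Exact binomial tests of replicate 2 against replicate 1, adjusted by Benjamini-Hochberg over all intervals with a limit of 0.01, called 0 members and 0 of 119502 intervals (0%). At an unadjusted p under 0.05 there were 8 members of 164, against 8.39% of all intervals. With edgeR TMM scaling the adjusted test called 6 of all intervals and again 0 members. No strong member differed by over 1.5-fold. The largest difference among strong IrxB intervals was 88.6 kb downstream of Irx3, with 153 and 110 counts (log2 -0.47, adjusted p = 0.387 by the exact binomial test), and in IrxA it was 4.62 kb upstream of Irx2, with 90 and 122 counts (log2 0.43, adjusted p = 0.547 by the exact binomial test).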

How the data were processed

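The authors deposited raw fragment counts per consensus interval for the 2 libraries. Per the file header, featureCounts 2.0.1 counted read pairs, with a minimum overlap fraction of 0.2 and with a fragment counted in every interval it overlapped. The study's methods name the nf-core ATAC-seq pipeline, mm10 and MACS peaks. The interval set came from 5 libraries, and the 3 count columns that belong to no sample here were not used, although they helped to define it. A weak element enters only where a peak was called.

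Normalised counts are counts over the library's size factor (DESeq2 1.42.0), and densities divide these by interval length in kb. Start sites were gene starts of GENCODE M21, 1 per gene. Only chromosome names and lengths that match the GRCm38.p6 reference were used for sequence. Replicate differences were assessed per interval by an exact binomial test (two-sided), checked on simulated data, that sets the libraries and not conditions against each other and allows for counting error only. IrxA and IrxB intervals were aligned with BLAST+ 2.17.0 (E-value 1e-05, word size 11). Wilson intervals on shares of library counts cover counting error only, since fragments carried no molecular identifiers. Those on shares of intervals or windows treat each interval or window as independent, which neighbours in a cluster are not. A count of 0 allows up to 3 counts. Analyses ran in Python 3.11.15 and R 4.3.3, with edgeR 4.0.16 for an alternative scaling.

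Named intervals were all those over member starts, the 3 densest distal ones per gene, the largest replicate difference per cluster among strong intervals, and every paralogous pair. Other intervals near the starts enter as counts and medians. Genes flanking the clusters were named by position. The members, lists and motifs were chosen with earlier results of these data known. Tried alternatives were other scalings, count minimums, distance limits, annotations, BLAST settings, window sizes and leaving out a library. Protein sequences were not used here.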

Additional observations from a re-analysis of the deposited data

How the results depend on the processing

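No paired analysis was possible because the labels define a single group. Of the 43 alternatives to the summary values, 28 stayed within the spread or Wilson interval, or within 1.5 times for a count, 15 moved, and 0 reversed. Scaling by edgeR TMM or by total counts moved none. The number of Irx intervals was 29 with the nearest start among all annotated genes and 69 within 100 kb of the start. The share of strong intervals became 63.4% at a count of at least 50, 56.5% within 100 kb and 58.6% with all annotated genes. Per interval in place of per kb, the median promoter value was 1318, the ratio of Irx to other distal intervals was 1.41 and that of IrxB to IrxA was 1.42. The ratio of Irx to other distal intervals was 1.40 within 100 kb of the nearest start and 1.54 with all annotated genes. That of IrxB to IrxA was 1.26 at a mean count of at least 10, 1.04 within 100 kb and 1.95 with all annotated genes. Leaving out a library gave 42.7% to 43.9% strong, a promoter median of 858 to 909, and ratios of 1.02 to 1.04 and 1.28 to 1.37. There were 2 paralogous pairs at an E-value of 1e-10 and 7 at a word size of 7. The causes were not tested. Chosen after seeing the data, division by the distal median of the chromosome gave an IrxB to IrxA ratio of 1.30, leaving out exon intervals gave 1.35, and masking repeats left 4 pairs. Of 10 motifs, 6 were more frequent in Irx windows than in all distal windows at 300 bp, 5 at 200 bp and 4 at 500 bp. With 2 libraries, an SD has 1 degree of freedom, so spreads are rough.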

Other observations

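By the nearest protein-coding start, most member counts were distal, where 158 of the 164 members lay. The same share over all intervals was not computed, so this is not a trait of the Irx genes. With starts of all annotated genes admitted, 29 intervals stayed with the Irx genes. The 6 intervals over starts took 29.9% of the member counts in replicate 1 and 29.1% in replicate 2. For Irx5, whose start was the densest, the share was 46.4% and 46.3%, while for Irx4 it was 4.05% and 3.48%. Irx3 had the largest distal sum, with 12076 and 12541 counts over 50 intervals, and Irx6 the smallest, with 2404 and 2398 over 15.

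Named after its values were seen, the interval with the lowest p among the members lay 301 kb upstream of Irx4, with 40 and 15 counts (exact binomial test, unadjusted p = 0.000682, adjusted p = 0.219). With the shorter BLAST seed, a pair outside exons joined noncorresponding genes, 324 kb from the Irx1 start and 131 kb from the Irx6 start, along 85 bases at 74.1% identity.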
